A study of Mus musculus with 6 samples.

Results

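The genes of mitochondrial pyruvate entry, the pyruvate dehydrogenase (PDH) complex and the tricarboxylic acid (TCA) cycle were examined in bone marrow-derived macrophages (BMDMs) of PKM2ΔMAC and PKM2FL/FL mice. They were listed by their known function, and 37 of the 23935 gene symbols in the deposited tables belong to the set. All 37 genes passed edgeR's filter on low counts and were tested. The set holds the pyruvate carrier (Mpc1, Mpc2), the PDH complex with its kinases and phosphatases (Pdha1, Pdhb, Dlat, Dld, Pdhx, Pdk1 to Pdk4, Pdp1, Pdp2), pyruvate carboxylase (Pcx), the enzymes of the cycle with the cytosolic counterparts Aco1, Idh1 and Mdh1 (Cs, Aco1, Idh1, Idh2, Idh3a, Idh3b, Idh3g, Ogdh, Dlst, Sucla2, Suclg1, Suclg2, Sdha to Sdhd, Fh1, Mdh1, Mdh2), the malic enzymes (Me1, Me2), and the export and cleavage of citrate (Slc25a1, Acly). The mitochondrial aconitase was not on the list and was not analysed here.

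Pyruvate, the end product of glycolysis, enters mitochondria through the MPC carrier and is oxidised to acetyl-CoA by the PDH complex, which PDH kinases switch off by phosphorylation and PDH phosphatases switch on again. Acetyl-CoA is condensed with oxaloacetate to citrate, which is either oxidised round the cycle or exported to the cytosol for lipid synthesis. In macrophages activated by LPS and IFN-γ the cycle is known to be interrupted, so that citrate and succinate accumulate and cis-aconitate is turned into itaconate by the enzyme encoded by Acod1.

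BMDMs are macrophages grown from bone marrow with the growth factor M-CSF, here for 7 days. By the labels, cells of both genotypes received LPS, a component of the bacterial outer membrane, at 10 ng/mL and the cytokine IFN-γ at 25 ng/mL for 16 h, and no library of unstimulated cells was analysed here. PKM2ΔMAC mice carried the floxed PKM2 alleles and LysM-Cre, a Cre recombinase inserted in the Lyz2 gene and active in the myeloid lineage, whereas their PKM2FL/FL littermates carried the floxed alleles without Cre. Each genotype had 3 libraries, 1 for each numbered mouse, and the age of these mice is not in the labels. Cre alone was not a control, so an effect of the Cre insertion and loss of PKM2 cannot be told apart. The study asked how PKM2 shapes the inflammatory state of macrophages, with HIF-1α signalling as the pathway of interest. The comparison below asks whether RNA of the genes that handle pyruvate downstream of PKM2 differed between the genotypes.

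Levels are given as counts scaled to library size with TMM factors (CPM) for comparisons of 1 gene between libraries, and as the deposited length-scaled values (TPM), for comparisons between genes. Library totals were between 49957449 and 54524651 counts, and counts on the 37 genes were between 275 and 15075 in a library. Pkm, the targeted gene (chr9:59656368-59679375, plus strand, GRCm38), was at 1714, 1698 and 1705 CPM in PKM2FL/FL and 987, 1212 and 1005 CPM in PKM2ΔMAC, with a log2 fold change of -0.68 (adjusted p = 0.00913, edgeR). Its adjusted p was above 0.05 when any single PKM2FL/FL library was left out and on the TPM values. Counts are per gene, and Pkm encodes both PKM1 and PKM2, so these values do not measure PKM2 RNA alone. Lyz2 fell from 17825 ± 860.1 (SD, n = 3) CPM to 28.4 ± 3.80 (SD, n = 3) CPM. The macrophage markers fixed as a list (Adgre1, Cd68, Itgam, Fcgr1, Mertk, Mrc1) summed to between 3967 and 4028 CPM in PKM2FL/FL and between 4189.7 and 4403 CPM in PKM2ΔMAC. Of these 6 genes 3 were higher and 3 lower in estimate, and 1, Itgam, was called higher (log2 fold change 0.43, adjusted p = 0.00272 in edgeR, and called under all 16 alternatives). Adgre1 had the largest difference in mean CPM, higher in PKM2ΔMAC in estimate, and was not called (adjusted p = 0.236, edgeR). The 7 genes listed for their induction by LPS and IFN-γ summed to between 101.4 and 103 CPM in PKM2FL/FL and between 89.5 and 104 CPM in PKM2ΔMAC. Over all 6 libraries Irf1 was between 53.6 and 56.8 CPM, Gbp2 between 18.7 and 27.1 CPM and Cd86 between 11.2 and 13.5 CPM. Cxcl10 was between 2.44 and 5.55 CPM, Acod1 between 1.63 and 4.27 CPM, Cxcl9 between 0.415 and 0.91 CPM and Nos2 between 0.0385 and 0.49 CPM. Cxcl10, Acod1, Cxcl9 and Nos2 are known to be strongly induced in macrophages by LPS with IFN-γ. Their low levels go against the labelled stimulation, and the values below are those of libraries labelled as primed. Stromal markers (Col1a1, Col1a2, Col3a1, Cxcl12, Dcn), of which the collagen genes are typical of fibroblasts and not of macrophages, summed to between 5687 and 6255 CPM in PKM2FL/FL and between 5406 and 6911 CPM in PKM2ΔMAC. The summed neutrophil markers were between 20.3 and 48.8 CPM against between 90.1 and 169.97 CPM, with 8 of 8 estimates higher in PKM2ΔMAC. Cell cycle genes summed to between 530.3 and 540.0 CPM in PKM2FL/FL, and to 667, 902 and 647 CPM in PKM2ΔMAC replicates 1 to 3, with 12 of 12 estimates higher. In edgeR 0 of the 8 neutrophil genes and 0 of the 12 cell cycle genes were called at an adjusted p of 0.05, against 0.412% of all genes. At an unadjusted p under 0.05 in edgeR there were 5 of 8 and 7 of 12, against 9.83% of all genes. The genotypes did not overlap for 5 of 8 and 10 of 12, against 17.2% of all genes. The part of these other cells and of cell division in the values below was not tested, and in RNA of whole cultures fewer cells of a type and less RNA per cell cannot be told apart. PKM2ΔMAC replicate 2 stood apart from the other 2 libraries of its genotype, being the farthest of the 3 for 45.7% of all genes tested. For genes described by their values in each library, the log2 fold change without it is given where it turned the sign or moved the estimate by more than 1.5 times.

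No gene of the set passed the threshold in either direction. With edgeR's quasi-likelihood test and Benjamini-Hochberg adjustment over 16516 genes, 0 of the 37 genes were called at an adjusted p of 0.05, against 0.412% of all genes tested (0.285% higher and 0.127% lower in PKM2ΔMAC). DESeq2 also called 0 of the 37, with 1.83% of all genes called. At an unadjusted p under 0.05, both tools gave 1 of the 37 genes, Me2, which was higher in PKM2ΔMAC, where 9.83% of all genes passed in edgeR (5.24% higher and 4.6% lower). The lowest adjusted p of the set was 0.406. In estimate, 21 genes were higher and 16 lower in PKM2ΔMAC. Their log2 fold changes ran from -0.20 (Mpc1) to 0.15 (Me2), with a median of 0.0091 against -0.00021 over all genes tested. The median absolute log2 fold change was 0.055 for the set and 0.093 for all genes tested, and 30 of the 37 genes lay under 0.1. Values of the 2 genotypes did not overlap for 5 of the 37 genes (13.5%), of which 4 were higher (Me2, Acly, Sucla2, Suclg2) and 1 was lower (Sdhd) in PKM2ΔMAC. Over all genes tested the share was 17.2% (8.92% higher and 8.32% lower), so the share in the set was not above the background.

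**Figure D1:**
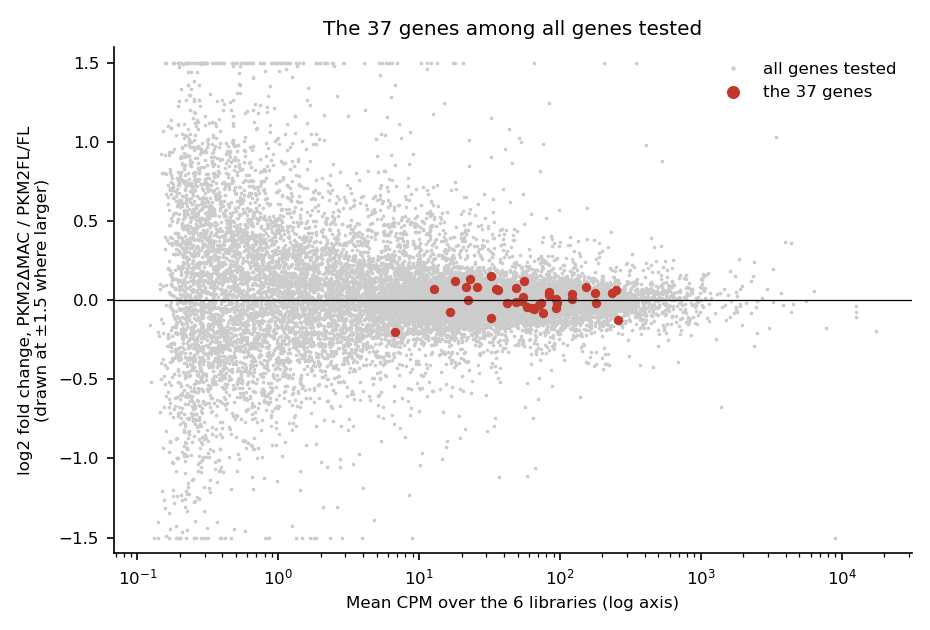
Each point is a gene, with the mean CPM over the 6 libraries on a logarithmic x axis and the log2 fold change of PKM2ΔMAC over PKM2FL/FL on the y axis. Changes beyond 1.5 either way are drawn at the edge. The 37 genes, in red, lie between -0.20 and 0.15, close to the line of no change.

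The data also bound how large a difference could have been missed. The 95% interval of each log2 fold change came from its standard error (SE) and the total degrees of freedom of the edgeR test. That total is the residual degrees of freedom plus those edgeR borrows from all genes. The interval lay within a 1.2-fold change either way for 28 of the 37 genes and within 1.5-fold for 37. Over all genes tested these shares were 38.8% and 63.4%. The wide intervals belonged to Pdk4, which allowed from 0.67 to 1.41 times the PKM2FL/FL level, Me1 (0.78 to 1.40 times) and Mpc1 (0.68 to 1.11 times). The spread between mice of one genotype was small for most of the set, with a median coefficient of variation of 2.93% in PKM2FL/FL and 4.31% in PKM2ΔMAC, against 6.61% and 9.25% over all genes tested.

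**Figure D2:**
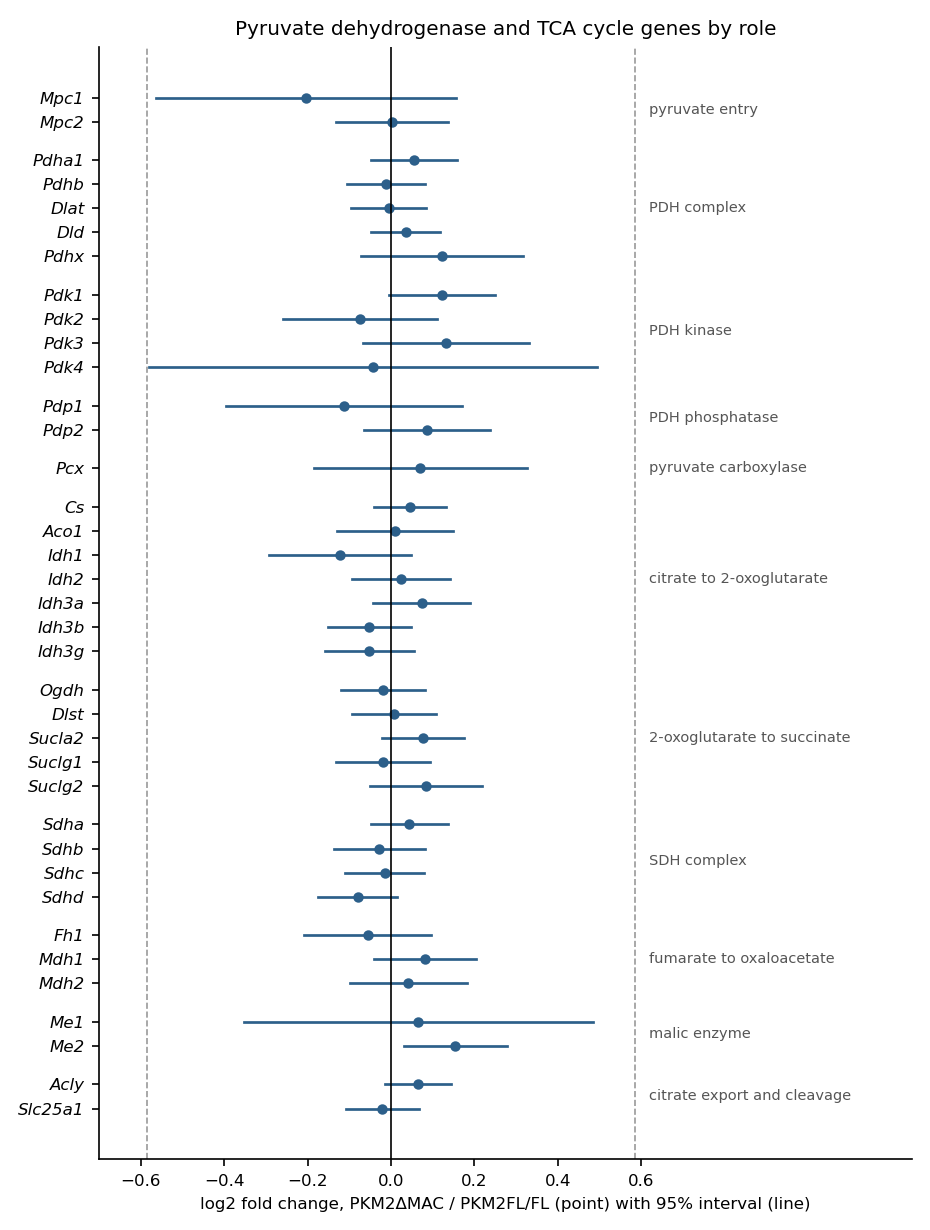
The fitted log2 fold change of each gene (point) and its 95% interval (line) are drawn by role, with zero as a solid line and a 1.5-fold change either way as dashed lines. Every interval stays within the dashed lines, and the interval of Me2, from 0.031 to 0.28, is the one that does not include zero.

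Pyruvate entry was examined through Mpc1 and Mpc2, the subunits of the mitochondrial pyruvate carrier. Mpc1 (chr17:8282904-8297661, plus strand) had the fewest counts of the set, and was at 6.42, 8.26 and 7.03 CPM in PKM2FL/FL and 6.97, 5.01 and 6.87 CPM in PKM2ΔMAC. PKM2ΔMAC replicate 2 was the lowest of the 6 libraries and the other 2 PKM2ΔMAC libraries lay within the range of the controls. Mpc1 had a log2 fold change of -0.20 (SE 0.16, 95% interval -0.56 to 0.16, adjusted p = 0.739), and of -0.062 (SE 0.13) without PKM2ΔMAC replicate 2. Exons of Mpc1 overlap 4930506C21Rik on the opposite strand, and whether reads were counted by strand is not given in the sources used here. Mpc2 was between 21.3 and 22.9 CPM in all 6 libraries, and its log2 fold change was 0.0027 (SE 0.059).

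No gene passed the threshold, and Pdhx had the largest log2 fold change, among the 5 genes of the PDH complex. Pdha1, which encodes the alpha subunit of its decarboxylase, was at 84.7, 80.0 and 81.6 CPM in PKM2FL/FL and 82.0, 89.3 and 84.5 CPM in PKM2ΔMAC. PKM2ΔMAC replicate 2 was the highest library, and the other values overlapped. Pdha1 had a log2 fold change of 0.055 (SE 0.045, 95% interval -0.048 to 0.16, adjusted p = 0.763), and of 0.022 (SE 0.042) without that library. Pdhb, the beta subunit of the same enzyme, Dlat, the acetyltransferase, and Dld, the dehydrogenase shared with the 2-oxoglutarate complex, had log2 fold changes of -0.012, -0.0057 and 0.035, with SE between 0.036 and 0.041. Pdhx, which anchors Dld to the complex, was at 16.6, 17.0 and 17.8 CPM in PKM2FL/FL and 19.6, 16.5 and 19.8 CPM in PKM2ΔMAC. Replicates 1 and 3 of PKM2ΔMAC were above every control, whereas replicate 2 was the lowest of the 6. Its log2 fold change of 0.12 (SE 0.085, 95% interval -0.071 to 0.32, adjusted p = 0.697) became 0.20 (SE 0.073) when replicate 2 was left out and 0.076 without PKM2ΔMAC replicate 3.

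Of the 4 PDH kinases, which inhibit the complex, Pdk1 and Pdk3 were higher and Pdk2 and Pdk4 lower in estimate, and none passed the threshold. Pdk1 (chr2:71873224-71903858, plus strand), a textbook target of HIF-1, was at 57.5, 51.0 and 51.5 CPM in PKM2FL/FL and 56.6, 57.6 and 60.0 CPM in PKM2ΔMAC. The first control library lay among the PKM2ΔMAC values and the other 2 controls lay below all of them. Pdk1 had a log2 fold change of 0.12 (SE 0.056, 95% interval -0.0054 to 0.25, adjusted p = 0.525), and an unadjusted p of 0.0584 in edgeR. Pdk3, another kinase under HIF-1 in some cells, was at 20.4, 23.2 and 22.5 CPM in PKM2FL/FL and 24.8, 26.1 and 21.5 CPM in PKM2ΔMAC, where replicates 1 and 2 of PKM2ΔMAC exceeded the controls and replicate 3 did not. For Pdk3 the log2 fold change was 0.13 (SE 0.087, 95% interval -0.066 to 0.33, adjusted p = 0.673). It was 0.074 (SE 0.084) without PKM2ΔMAC replicate 2 and 0.21 (SE 0.078) without PKM2ΔMAC replicate 3. In the edgeR fit without replicate 3, 1 of the 37 genes had an unadjusted p under 0.05, against 1874 of all 17060 genes tested. That gene was Pdk3, with an adjusted p of 0.378. Pdk2, the kinase found in most tissues, was at 17.6, 16.4 and 17.3 CPM in PKM2FL/FL and 16.4, 14.8 and 17.6 CPM in PKM2ΔMAC, with overlapping groups and a log2 fold change of -0.073 (SE 0.081, 95% interval -0.26 to 0.11, adjusted p = 0.827). The lowest library was PKM2ΔMAC replicate 2, without which the value for Pdk2 was -0.0089 (SE 0.078).

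Pdk4 (chr6:5483351-5496309, minus strand), the kinase known for its induction in fasting and by fatty acids, had the widest spread of the set between PKM2ΔMAC mice, with a coefficient of variation of 26.9% against 12.0% in PKM2FL/FL. It was at 51.1, 64.5 and 62.0 CPM in PKM2FL/FL and 50.7, 75.1 and 46.5 CPM in PKM2ΔMAC. PKM2ΔMAC held both the highest and the lowest of the 6 values. The log2 fold change was -0.043 (SE 0.21, 95% interval -0.58 to 0.49, adjusted p = 0.971), and -0.28 (SE 0.11) without PKM2ΔMAC replicate 2 (unadjusted p = 0.0411, edgeR; adjusted p = 0.349). Its direction also turned, to between 0.0036 and 0.0039, on the TPM values. Leaving out any single library moved it between -0.28 and 0.087.

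The PDH phosphatases, which reactivate the complex, lay on either side of zero. Pdp1 was at 35.5, 30.5 and 34.6 CPM in PKM2FL/FL and 33.1, 25.5 and 34.5 CPM in PKM2ΔMAC, with PKM2ΔMAC replicate 2 below the other 5 libraries. The log2 fold change of Pdp1, -0.11 (SE 0.12, 95% interval -0.40 to 0.17, adjusted p = 0.821), was 0.012 (SE 0.070) without that library. Pdp2 was at 25.2, 23.8 and 25.7 CPM in PKM2FL/FL and 27.1, 27.7 and 24.5 CPM in PKM2ΔMAC, and replicates 1 and 2 of PKM2ΔMAC were above all controls while replicate 3 fell within them. For Pdp2 the fitted value was 0.086 (SE 0.066, 95% interval -0.065 to 0.24, adjusted p = 0.737), and 0.053 (SE 0.070) without PKM2ΔMAC replicate 2. Pcx, which carboxylates pyruvate to oxaloacetate and so refills the cycle, was at 12.6, 12.3 and 12.2 CPM in PKM2FL/FL and 11.6, 15.3 and 12.0 CPM in PKM2ΔMAC. Here the controls were nearly equal, PKM2ΔMAC replicate 2 was above them and the other 2 PKM2ΔMAC libraries were below them. For Pcx the fitted value was 0.070 (SE 0.11, 95% interval -0.18 to 0.33, adjusted p = 0.886), and it changed sign to -0.066 (SE 0.086) without replicate 2.

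From citrate synthesis to 2-oxoglutarate, 4 genes were higher and 3 lower in estimate. Cs, citrate synthase, was at 178, 168 and 173 CPM in PKM2FL/FL and 181, 177 and 178 CPM in PKM2ΔMAC. Each genotype's values fell within a narrow band and the bands overlapped at 1 control library. Cs had a log2 fold change of 0.045 (SE 0.038, 95% interval -0.042 to 0.13, adjusted p = 0.767), and of 0.025 without PKM2FL/FL replicate 2. Idh3a, the catalytic subunit of the NAD-dependent isocitrate dehydrogenase of the cycle, was at 34.7, 33.3 and 34.4 CPM in PKM2FL/FL and 34.3, 36.9 and 36.8 CPM in PKM2ΔMAC, with replicates 2 and 3 of PKM2ΔMAC above the controls. Idh3a had a log2 fold change of 0.074 (SE 0.051, 95% interval -0.042 to 0.19, adjusted p = 0.696). Its partner subunits Idh3b and Idh3g had log2 fold changes of -0.052 and -0.052, and Aco1, the cytosolic aconitase that doubles as an iron sensor, and Idh2, the mitochondrial NADP-dependent enzyme, had 0.0091 and 0.023 (SE between 0.044 and 0.061 for these 4 genes). Without PKM2ΔMAC replicate 2, Idh3b was at -0.017 (SE 0.040), Aco1 at 0.074 (SE 0.043) and Idh2 at 0.051 (SE 0.053).

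Idh1 (chr1:65158616-65186500, minus strand), the cytosolic NADP-dependent isocitrate dehydrogenase, had the highest TPM of the set in PKM2FL/FL, and was at 252, 274 and 278 CPM in PKM2FL/FL and 232, 275 and 232 CPM in PKM2ΔMAC. Replicates 1 and 3 of PKM2ΔMAC differed by 0.0174 CPM and lay below every control, and replicate 2 lay at the level of the second control. With all libraries the log2 fold change was -0.12 (SE 0.074, 95% interval -0.29 to 0.048, adjusted p = 0.648). Without PKM2ΔMAC replicate 2 it was -0.21 (SE 0.046), with an adjusted p of 0.0468, which made Idh1 the 1 gene of the set called in that fit, where 1.77% of all genes were called. Leaving out PKM2ΔMAC replicate 1 instead gave -0.081, and the fit on log2(TPM + 1) gave -0.053. Over the 16 alternatives the adjusted p of Idh1 ranged from 0.0468 to 0.887, and the direction was lower in PKM2ΔMAC in each of them. In the same fit without replicate 2, 7 of the 37 genes had an unadjusted p under 0.05 (Pdhx, Pdk1, Mdh1 and Me2 higher, Pdk4, Idh1 and Fh1 lower), against 13.3% of all genes.

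**Figure D3:**
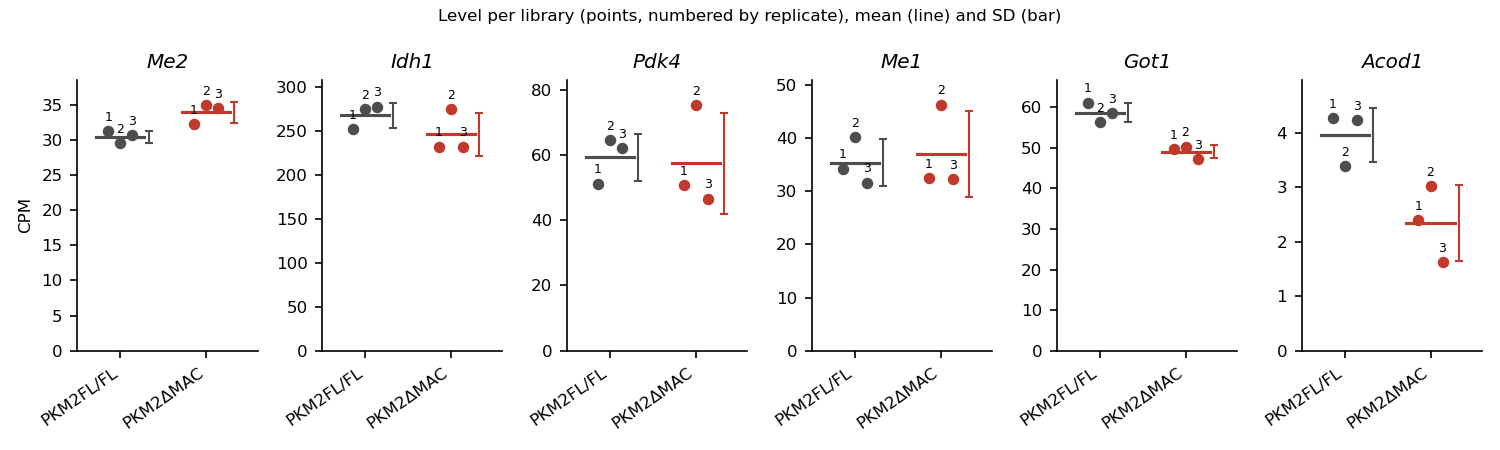
CPM of 4 genes of the set (Me2, Idh1, Pdk4, Me1) and of Got1 and Acod1 are drawn per library, with points numbered by replicate, a line at the mean and a bar for the SD (n = 3 for each genotype). PKM2ΔMAC replicate 2 is the highest point of its genotype in each of the 6 genes, and the genotypes do not overlap in Me2, Got1 and Acod1.

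Between 2-oxoglutarate and succinate, the clearest order of libraries was in succinyl-CoA ligase. Ogdh, the decarboxylase of the 2-oxoglutarate dehydrogenase complex, was at 184, 183 and 179 CPM in PKM2FL/FL and 186, 169.5 and 183 CPM in PKM2ΔMAC, with PKM2ΔMAC replicate 2 the lowest and the other libraries overlapping. Its log2 fold change was -0.020 (SE 0.044, 95% interval -0.12 to 0.081, adjusted p = 0.930), and it turned to 0.021 (SE 0.036) without that library. The log2 fold change of Dlst, the succinyltransferase of the complex, was 0.0080 (SE 0.044). Sucla2, the beta subunit of the ligase form that makes ATP, was at 47.4, 45.9 and 48.3 CPM in PKM2FL/FL and 49.0, 49.2 and 51.0 CPM in PKM2ΔMAC. All 3 PKM2ΔMAC libraries were above all 3 controls, which gives a two-sided exact permutation p of 0.1, the smallest that 3 libraries against 3 allow. The size of this difference was small, with a log2 fold change of 0.076 (SE 0.043, 95% interval -0.022 to 0.17, adjusted p = 0.615). Suclg2, the beta subunit of the GTP-making form, was at 20.7, 20.9 and 21.3 CPM in PKM2FL/FL and 21.7, 21.8 and 23.2 CPM in PKM2ΔMAC, again without overlap (exact permutation p = 0.1). For Suclg2 the log2 fold change was 0.084 (SE 0.058, 95% interval -0.049 to 0.22, adjusted p = 0.697). The alpha subunit common to both forms, Suclg1, had a log2 fold change of -0.019 (SE 0.050).

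Succinate dehydrogenase, which also serves as complex II of the respiratory chain, had 1 subunit higher and 3 lower in estimate. Sdha, the flavoprotein that oxidises succinate, was at 231, 226 and 231 CPM in PKM2FL/FL and 241, 226 and 242 CPM in PKM2ΔMAC. Replicates 1 and 3 of PKM2ΔMAC were above the controls and replicate 2 was at the level of the lowest control. Sdha had a log2 fold change of 0.044 (SE 0.041, 95% interval -0.049 to 0.14, adjusted p = 0.789), and of 0.075 (SE 0.035) without replicate 2. Sdhb, the iron-sulfur subunit, was at 74.6, 71.1 and 69.1 CPM in PKM2FL/FL and 68.6, 68.4 and 73.6 CPM in PKM2ΔMAC with overlapping groups, and its log2 fold change was -0.028 (SE 0.048, 95% interval -0.14 to 0.081, adjusted p = 0.895), against -0.0088 (SE 0.049) without PKM2ΔMAC replicate 2. Sdhc, a membrane anchor, had -0.015 (SE 0.041). Sdhd (chr9:50596357-50603812, minus strand), the other membrane anchor, was at 77.2, 79.0 and 76.1 CPM in PKM2FL/FL and 75.8, 70.7 and 73.3 CPM in PKM2ΔMAC. Every PKM2ΔMAC library was below every control (exact permutation p = 0.1), and the highest PKM2ΔMAC value was 0.284 CPM below the lowest control. For Sdhd the fitted log2 fold change was -0.080 (SE 0.041, 95% interval -0.17 to 0.015, adjusted p = 0.579), and -0.053 (SE 0.042) without PKM2ΔMAC replicate 2. On the TPM values it was -0.0078.

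In the last steps of the cycle, Fh1, fumarase, was at 62.5, 67.0 and 69.4 CPM in PKM2FL/FL and 61.7, 69.8 and 59.7 CPM in PKM2ΔMAC. Replicate 2 of PKM2ΔMAC was the highest of the 6 libraries and the other 2 were the lowest. Fh1 had a log2 fold change of -0.056 (SE 0.067, 95% interval -0.21 to 0.096, adjusted p = 0.839), and of -0.13 (SE 0.052) without that library (unadjusted p = 0.0335, edgeR; adjusted p = 0.321). With any 1 library left out the value for Fh1 was between -0.13 and -0.012, nearest to zero without PKM2ΔMAC replicate 3. Mdh2, the mitochondrial malate dehydrogenase, was at 125, 111 and 122 CPM in PKM2FL/FL and 121, 131 and 116 CPM in PKM2ΔMAC, with overlapping groups. Its log2 fold change was 0.042 (SE 0.061, 95% interval -0.098 to 0.18, adjusted p = 0.876), and it turned to -0.0084 (SE 0.052) without PKM2ΔMAC replicate 2, the highest library. The cytosolic form, Mdh1, was between 142 and 157 CPM in PKM2FL/FL and between 148 and 163 CPM in PKM2ΔMAC, with a log2 fold change of 0.082 (SE 0.053, 95% interval -0.040 to 0.20, adjusted p = 0.670), and of 0.12 (SE 0.046) without PKM2ΔMAC replicate 2, and it was between 0.050 and 0.12 with any 1 library left out, lowest without PKM2FL/FL replicate 3.

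The malic enzymes, which turn malate into pyruvate, included the largest rise of the set in estimate. Me2, the mitochondrial enzyme, was at 31.2, 29.5 and 30.7 CPM in PKM2FL/FL and 32.2, 34.9 and 34.5 CPM in PKM2ΔMAC. All PKM2ΔMAC libraries lay above all controls (exact permutation p = 0.1), by 1.02 CPM at the closest pair. Me2 had a log2 fold change of 0.15 (SE 0.054, 95% interval 0.031 to 0.28, adjusted p = 0.406) and an unadjusted p of 0.0202 in edgeR. Its estimate was higher in PKM2ΔMAC under all 16 alternatives, with log2 fold changes between 0.13 and 0.22 and adjusted p between 0.30 and 0.758. Me1, the cytosolic NADP-dependent enzyme, was at 34.2, 40.2 and 31.6 CPM in PKM2FL/FL and 32.4, 46.2 and 32.2 CPM in PKM2ΔMAC. Replicate 2 was the highest library in both genotypes, and the others lay close together. The log2 fold change of Me1 was 0.066 (SE 0.17, 95% interval -0.35 to 0.48, adjusted p = 0.940), and -0.13 (SE 0.093) without PKM2ΔMAC replicate 2.

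Citrate export and cleavage differed little. Acly (chr11:100476353-100528000, minus strand), ATP-citrate lyase, which makes cytosolic acetyl-CoA from exported citrate, was at 241, 244 and 244 CPM in PKM2FL/FL and 254, 255 and 254 CPM in PKM2ΔMAC. The 3 PKM2ΔMAC libraries lay within 0.971 CPM of each other and at least 9.43 CPM above the 3 controls (exact permutation p = 0.1). Acly had a log2 fold change of 0.064 (SE 0.035, 95% interval -0.015 to 0.14, adjusted p = 0.596), a rise of 4.56% in the fitted level that did not pass the threshold. Slc25a1, the mitochondrial citrate carrier, was at 73.5, 73.4 and 73.6 CPM in PKM2FL/FL and 73.7, 70.0 and 73.8 CPM in PKM2ΔMAC. Its controls lay within 0.188 CPM of each other, and PKM2ΔMAC replicate 2 was the 1 library below them. Slc25a1 had a log2 fold change of -0.021 (SE 0.039, 95% interval -0.11 to 0.068, adjusted p = 0.911), which turned to 0.0050 (SE 0.040) without that library.

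Spread among the PKM2ΔMAC mice followed 1 library more than the others. Replicate 2 was the farthest from the other 2 for 21 of the 37 genes, replicate 3 for 10 and replicate 1 for 6, and the shares over all genes tested were 45.7%, 30.3% and 23.9%. Its level differed by more than 0.3 on the log2 scale from the mean of the other 2 libraries for 5 genes. These were Pdk4 (0.63), Me1 (0.52) and Pcx (0.38), which were higher in replicate 2, and Mpc1 (-0.47) and Pdp1 (-0.41), which were lower. Leaving it out turned the sign of the log2 fold change for 8 of the 37 genes and moved it by more than 1.5 times with the same sign for another 19. Among genes close to zero that were given above without this value, Mpc2 was then at 0.022 (SE 0.067), Dlat at -0.017 (SE 0.045), Dlst at -0.0095 (SE 0.044), Suclg1 at -0.0039 (SE 0.055) and Sdhc at 0.00076 (SE 0.043). Other libraries also moved small estimates. With any 1 library left out, the log2 fold change was between -0.29 and -0.062 for Mpc1, between 0.022 and 0.082 for Pdha1, between -0.033 and -0.0019 for Pdhb, between 0.022 and 0.046 for Dld, between -0.14 and -0.0089 for Pdk2 and between 0.053 and 0.14 for Pdp2. In the cycle it was between -0.074 and -0.017 for Idh3b, between -0.082 and -0.023 for Idh3g, between 0.053 and 0.10 for Suclg2, between 0.027 and 0.075 for Sdha and between -0.11 and -0.053 for Sdhd, each with an unchanged sign. The same library had the highest sum of cell cycle genes, 902 CPM, and the lowest Dcn, 5.39 CPM against 28.2 and 45.4 CPM in replicates 1 and 3, and their part in these differences was not tested.

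**Figure D4:**
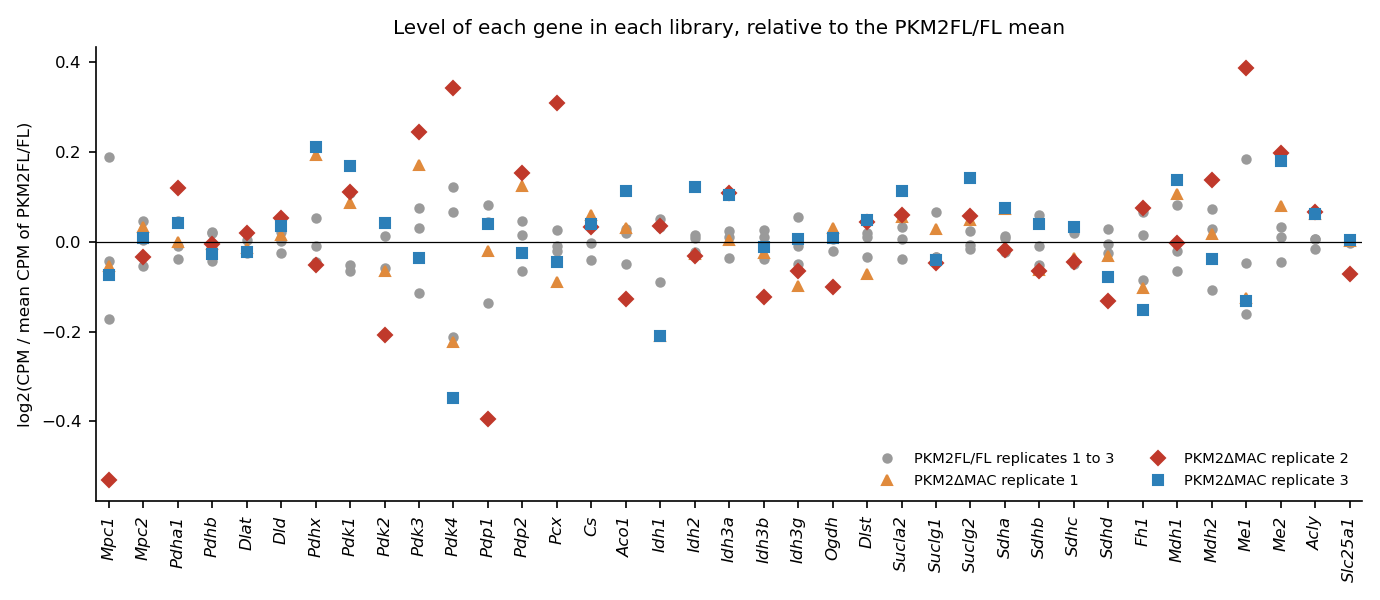
For each gene the log2 ratio of CPM in each library to the mean CPM of PKM2FL/FL is plotted, with control libraries as grey circles and the 3 PKM2ΔMAC libraries as orange triangles, red diamonds and blue squares. PKM2ΔMAC replicate 2, the red diamonds, lies more than 0.3 from the mean of the other PKM2ΔMAC libraries for Mpc1, Pdk4, Pdp1, Pcx and Me1. Most other points lie within 0.2 of zero.

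Within gene families the make-up was close in both genotypes. By TPM in PKM2FL/FL, the set spanned from 9.11 ± 0.138 TPM (Pcx) to 338 ± 20.4 TPM (Idh1, SD, n = 3). Among the PDH kinases, Pdk4 held 44.6% ± 3.1 (SD, n = 3) of the summed TPM in PKM2FL/FL and 42.1% ± 6.0 in PKM2ΔMAC, followed by Pdk3 with 22.8% ± 0.37 and 24.6% ± 1.7, Pdk1 with 18.3% ± 2.3 and 19.6% ± 2.6, and Pdk2 with 14.4% ± 1.2 and 13.6% ± 2.7. Pdk4 was thus the leading kinase transcript in each of the 6 libraries, between 37.9% and 48.99%. Of the PDH phosphatases, Pdp1 held 62.95% ± 1.1 and 59.5% ± 5.2, and its lowest share, 53.8%, was in PKM2ΔMAC replicate 2.

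Idh1 held 54.9% ± 1.2 of the summed isocitrate dehydrogenase TPM in PKM2FL/FL and 53.1% ± 3.1 in PKM2ΔMAC, whereas Idh3a held 3.83% ± 0.18 and 4.25% ± 0.12. Within the NAD-dependent enzyme, Idh3b and Idh3g exceeded Idh3a in every library. In the PDH complex, Dld (31.0% ± 0.36 and 31.0% ± 0.065) and Pdha1 (30.3% ± 0.47 and 30.8% ± 0.91) were the most abundant and Pdhx the least (6.0% ± 0.27 and 6.4% ± 0.71). For succinate dehydrogenase, Sdhd took 34.98% ± 0.52 in PKM2FL/FL and 33.6% ± 0.73 in PKM2ΔMAC, and Sdha 30.9% ± 0.64 and 32.3% ± 0.28. The cytosolic form led among malate dehydrogenases (Mdh1, 62.5% ± 1.5 and 63.1% ± 2.7) and malic enzymes (Me1, 68.5% ± 3.1 and 66.9% ± 4.0). Gene lengths behind the TPM values are not given in the sources used here, so these shares rest on the lengths the authors used.

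**Figure D5:**
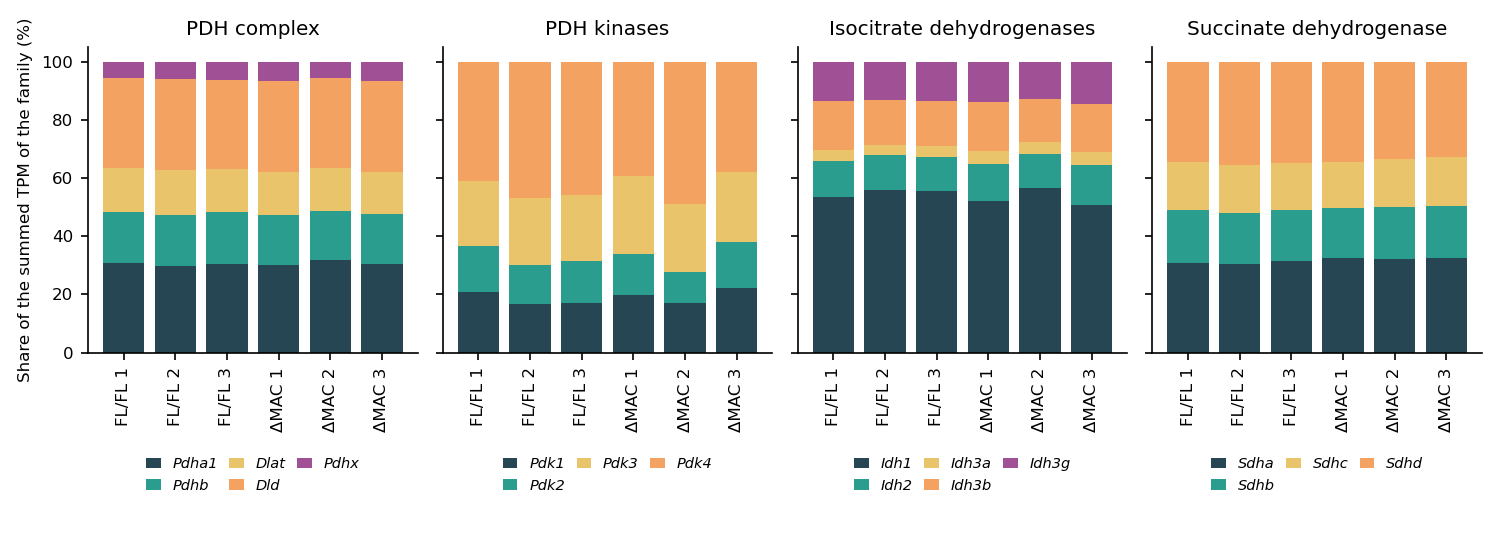
Bars give, for each library, the share of each gene in the summed TPM of its family, in percent, for the PDH complex, the PDH kinases, the isocitrate dehydrogenases and succinate dehydrogenase. Shares differ more between families than between genotypes, and the Pdk4 share is highest in PKM2ΔMAC replicate 2, at 48.99%.

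On the TPM values the median log2 fold change was higher than on the counts, both for the set and for all genes. TPM summed to between 999626 and 999691 in each library, of which Lyz2 held a mean of 47420 in PKM2FL/FL and 79.4 in PKM2ΔMAC. The part of Lyz2 in this shift was not tested. With limma-trend on log2(TPM + 1), 0 of the 37 genes passed an adjusted p of 0.05. The median log2 fold change of the set was 0.078 and that of all 14582 genes in this fit was 0.063, against 0.0091 and -0.00021 on the counts. In estimate, 32 of the 37 genes were higher in PKM2ΔMAC, and 11 had an unadjusted p under 0.05, all of them higher (Dld, Pdhx, Pdk1, Cs, Idh3a, Sucla2, Suclg2, Sdha, Mdh1, Me2 and Acly). That is 29.7% of the set, where 13.3% of all genes passed and 11.5% passed with a higher level. Relative to the median of all genes, that of the set was 0.015 higher. The lowest adjusted p in this fit was 0.282, so the choice between counts and TPM moved small differences without adding a call.

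The position of the genes was also recorded, since Pkm and Lyz2 are the loci manipulated in these mice. Of the 37 genes, 4 lie on chromosome 9 with Pkm in GENCODE M21 on GRCm38. Idh3a is 5.05 Mb from Pkm, Dlat 9.0 Mb, Sdhd 9.05 Mb and Me1 26.9 Mb. Their log2 fold changes were 0.074, -0.0057, -0.080 and 0.066, so they did not share a direction. Cs lies on chromosome 10, 11.1 Mb from Lyz2. Exons of 5 genes (Mpc1, Pdha1, Idh3b, Mdh1 and Me1) overlap another gene of the tables on the opposite strand, and their reads cannot be told apart if counting ignored strand.

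Other genes that serve the same pathway gave a like picture. A list of 69 genes for lipoylation and iron-sulfur clusters, SDH assembly, mitochondrial carriers, anaplerosis, acetyl-CoA use, itaconate and mitochondrial gene expression had 67 genes in the tables, of which 65 were tested. No gene of this list passed an adjusted p of 0.05 in edgeR, 4 had an unadjusted p under 0.05 (2 higher, 2 lower), where 9.83% of all genes passed, and DESeq2 called 1, where it called 1.83% of all genes. The genotypes did not overlap for 7 of the 65 genes (10.8%), 2 higher and 5 lower, against 17.2% of all genes tested (8.92% higher and 8.32% lower), so this share was not above the background. By group, an unadjusted p under 0.05 was seen in 1 of 15 genes for anaplerosis and transamination, 1 of 7 for paralogs, 1 of 8 for acetyl-CoA and citrate use and 1 of 4 for the itaconate branch. It was seen in 0 of 12 for lipoylation and iron-sulfur assembly, 0 of 4 for SDH assembly, 0 of 7 for carriers and 0 of 8 for regulators of mitochondrial gene expression.

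Got1 (chr19:43499752-43524605, minus strand), the cytosolic aspartate aminotransferase of the malate-aspartate shuttle, was the gene nearest to a call. It was at 61.0, 56.3 and 58.5 CPM in PKM2FL/FL and 49.6, 50.2 and 47.2 CPM in PKM2ΔMAC. All PKM2ΔMAC libraries were below all controls, and replicate 2 did not stand apart. The log2 fold change of Got1 was -0.26 (SE 0.048, 95% interval -0.37 to -0.15, adjusted p = 0.0838), and DESeq2 called it (adjusted p = 0.00792). It was also called without a filter on low counts (0.0393) and without PKM2ΔMAC replicate 2 (0.0208), and its adjusted p ranged from 0.00792 to 0.405 over the 16 alternatives. Acod1, which makes itaconate from cis-aconitate and so draws carbon from the cycle, was at 4.27, 3.39 and 4.23 CPM in PKM2FL/FL and 2.39, 3.02 and 1.63 CPM in PKM2ΔMAC. The genotypes did not overlap, with replicate 2 the nearest to the controls. For Acod1 the log2 fold change was -0.75 (SE 0.23, 95% interval -1.27 to -0.23, adjusted p = 0.334), and -0.97 without that library (adjusted p = 0.0424, within a range of 0.0424 to 0.750 over the alternatives). Ogdhl, a relative of Ogdh, was at 2.36, 2.12 and 1.63 CPM in PKM2FL/FL and 2.98, 2.203 and 4.19 CPM in PKM2ΔMAC, and Elovl6, a fatty acid elongase, at 11.9, 11.6 and 10.6 CPM in PKM2FL/FL and 11.7, 15.0 and 14.2 CPM in PKM2ΔMAC. Both overlapped between genotypes, with log2 fold changes of 0.61 (SE 0.26, adjusted p = 0.487) and 0.26 (SE 0.11, adjusted p = 0.481). Without PKM2ΔMAC replicate 3 that of Ogdhl was 0.34 (SE 0.24), and with any 1 library left out it was between 0.34 and 0.81, whereas that of Elovl6 was between 0.18 and 0.36.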

How the data were processed

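RNA-seq libraries labelled as LPS/IFN-γ-primed BMDMs came from 3 PKM2FL/FL and 3 PKM2ΔMAC mice. The authors deposited raw read counts per gene symbol and TPM values of the same 23935 symbols, with 0 columns of other samples. The submitters' processing notes name FastQC 0.12.1, Trim Galore 0.6.10, HISAT2 2.2.1, SAMtools 1.19.2, Subread 2.0.6 and the build mm10. Annotation, strandedness and gene lengths are not given in the sources used here. TPM depend on all genes of a library, whereas TMM factors, between 0.980 and 1.04, limit the pull of a few abundant genes.

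Counts were tested with edgeR 4.0.16 (R 4.3.3, filterByExpr, TMM, robust quasi-likelihood, genotype as the only term), and a gene was called at an adjusted p (Benjamini-Hochberg, 16516 genes) under 0.05. The SE was obtained from the log2 fold change and the F value, as their ratio after taking the root of F. Exact permutation tests used log2(CPM + 0.1), where the smallest two-sided p is 0.1. Gene positions came from GENCODE M21 on GRCm38. The functions were tested on simulated data.

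The genes and lists were chosen with earlier results of these data known. Values per library are given for genes with an unadjusted p under 0.05, genes without overlap, the 5 largest rises and falls, and representatives of each step. The fits were repeated with DESeq2 1.42.0, with upper-quartile or RLE factors, with no filter or at least 10 counts in every library, with a replicate block, without robust estimation, without each library in turn, and limma-trend (limma 3.58.1) on log2(TPM + 1) or log2(TPM + 0.1) with a mean TPM of at least 1 or no filter. No library was a repeat of another, since the chi-square of any pair within a genotype was 7.55 to 53.8 times its degrees of freedom. Which of the numbered mice were littermates of each other is not given in the sources used here, and p-values measure the spread between these libraries. The 37 genes had at least 275 counts in every library.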

Additional observations from a re-analysis of the deposited data

How the results depend on the processing

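The absence of a call held for the 37 genes under DESeq2, both other count normalizations, both other filters, the replicate block, non-robust estimation and the 3 fits on TPM. Leaving out 1 library in turn gave between 0 and 1 gene of the set called, the 1 being Idh1 without PKM2ΔMAC replicate 2. The total over all genes, 68, was 302 with DESeq2, 120 without a filter, 41 on log2(TPM + 1), 32 on log2(TPM + 0.1) and 36 on log2(TPM + 1) without a filter. With 1 library left out it was between 22 and 299, at 26, 27 and 22 without PKM2FL/FL replicates 1, 2 and 3 and at 299 without PKM2ΔMAC replicate 2. The replicate block gave 82. Correlations of same-numbered deviations were 0.069, 0.12 and 0.011, and those of different numbers were between -0.11 and 0.056. Of the 6 libraries, 5 correlated best with their own number, as a hint from the data. Whether the numbers pair the libraries was not tested, and the block called 0 of the 37 genes. The median log2 fold change of the set, 0.0091, was 0.016 with upper-quartile factors, 0.078 on log2(TPM + 1) with or without a filter, 0.079 on log2(TPM + 0.1), and between 0.0018 and 0.036 with 1 library left out.

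Of the 37 genes, 18 kept their direction under all 16 alternatives and 19 changed it under at least 1, in 60 of 592 values. On log2(TPM + 1), with or without a filter, reversed values were 0.059 for Pdhb (0.060), 0.065 for Dlat (0.067), 0.0039 for Pdk4 (0.0036), 0.019 for Idh3b, 0.020 for Idh3g (0.021), 0.051 for Ogdh (0.052), 0.052 for Suclg1 (0.053), 0.044 for Sdhb, 0.057 for Sdhc, 0.014 for Fh1 and 0.051 for Slc25a1, where the value in brackets is that on log2(TPM + 0.1) if it differs. Dlat was 0.0013 with upper-quartile factors. With 1 library left out, log2 fold changes that crossed zero were Aco1 from -0.047 to 0.074, Dlat from -0.019 to 0.0044, Dlst from -0.013 to 0.047, Idh2 from -0.030 to 0.051, Mdh2 from -0.0092 to 0.079, Me1 from -0.13 to 0.17, Mpc2 from -0.023 to 0.026, Ogdh from -0.045 to 0.021, Pcx from -0.066 to 0.14, Pdk4 from -0.28 to 0.087, Pdp1 from -0.20 to 0.012, Sdhb from -0.064 to 0.0025, Sdhc from -0.041 to 0.00076, Slc25a1 from -0.034 to 0.0050 and Suclg1 from -0.044 to 0.014. The cause of these changes was not tested. Mpc1 had the fewest counts of the set, and no alternative varied the depth.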
